A study of Mus musculus with 2 samples.

Results

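The levels of 32 genes of cholesterol synthesis, uptake, trafficking, esterification and efflux were compared in 2 RNA-seq libraries of SV40 MES13, a mouse glomerular mesangial cell line immortalised with SV40 early genes. The genes were chosen by name from the table of all genes, which holds 54713 rows. Of these rows, 13268 reached a mean of at least 1 CPM (the usual depth-scaled read count, here with TMM scaling of the library sizes) over both libraries and are called measured, and 31 of the 32 genes were among them. The AI662270 library came from cells infected with a lentivirus taken to carry the long noncoding RNA AI662270, with the genotype given as overexpression of that RNA. The treatment text instead names the cell line as what the virus expresses, so the insert is read from the title and genotype. The Lv_NC library came from cells infected with the control virus, with the genotype given as WT. Both lines were selected with 0.5 mg/ml puromycin, kept in 0.25 mg/ml puromycin and 10% serum, and labelled as otherwise untreated. The labels do not say whether a line is a clone or a pool. Each group is 1 library, so no spread between replicates could be measured and no test between the conditions was possible. Intervals given with a value are exact 95% intervals that cover counting error only.

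Animal cells make cholesterol from acetyl-CoA through mevalonate, squalene and lanosterol, and take it up from lipoproteins. When sterols are low in the endoplasmic reticulum, SCAP carries the transcription factor SREBP2 to the Golgi, where proteases release its active part. When sterols are high, INSIG proteins hold the complex back, oxysterols activate the LXR receptors that raise efflux through ABC transporters, and SOAT enzymes store the excess as cholesteryl esters. In mesangial cells, cholesterol loading and ester storage have been studied as part of lipid injury of the glomerulus.

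The libraries held 15062482 counts for AI662270 and 15727023 counts for Lv_NC. AI662270 itself (chr11:83223576-83226604, plus strand, mm10) had 241 counts in the AI662270 library and 0 counts in the Lv_NC library. Set against a floor of 3 counts in Lv_NC the ratio was 78.4, and the counting interval of the fold began at 63.3. The direction fits the labels. Among 13 mesangial markers the summed level was 643 CPM in the AI662270 library and 312 CPM in Lv_NC. Of these markers Itga8, Thy1 and Ren1 were at 0 in both libraries, and Vim supplied most of the sum with 8872 counts in the AI662270 library and 3360 in Lv_NC. Of the 6 measured mesangial markers 2 were called higher and 2 lower (at least 2-fold, with a counting interval that did not hold a ratio of 1). The higher ones were Vim and also Acta2, which had 171 counts in the AI662270 library and 12 in Lv_NC. The lower ones were Gata3, with 25 counts in the AI662270 library and 76 in Lv_NC, and Fhl2, with 537 in the AI662270 library and 1074 in Lv_NC. The 8 macrophage markers summed to 40.4 CPM in the AI662270 library and 49.0 CPM in Lv_NC, and the 3 measured ones differed in direction. Csf1r was called lower, with 150 counts in the AI662270 library and 419 in Lv_NC. Cd14 had 391 counts in the AI662270 library and 218 in Lv_NC, and Cd68 had 76 in the AI662270 library and 99 in Lv_NC, neither called. The defining macrophage genes Adgre1 and Itgam and the hepatocyte factor Hnf4a were at 0 in both libraries.

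The 32 genes together took 0.283% of the counts in the AI662270 library and 0.276% in Lv_NC. A gene was called higher or lower when its log2 ratio, computed on CPM plus 0.5, was at least 1 in size and the interval of its fold did not hold 1. By this rule 1 of the 31 measured genes was higher in the AI662270 library, Abca1, against 5.59% of all measured genes. Another 1 of 31 was lower, Soat2, against 5.72% of all measured genes. Both shares are near the background. Both of these genes passed the minimum of 1 CPM only through the library in which they were high. None of the 27 members that averaged 10 CPM or more was called, whereas 2.7% of all genes at that level were called higher and 5.05% lower. The measured members had a median log2 ratio of 0.15, beside -0.02 over all measured genes. With the smaller limit of 1.5-fold, 2 members were higher (Soat1 and Abca1, against 12.9% of all measured genes) and 2 were lower (Msmo1 and Soat2, against 14.3%). The log2 ratio lay within 0.5 of zero for 77.4% of the measured members and for 65.9% of all measured genes. These shares depend on level. At a mean of 10 CPM or more they were 81.5% of the 27 members and 71.3% of all genes.

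**Figure D1:**
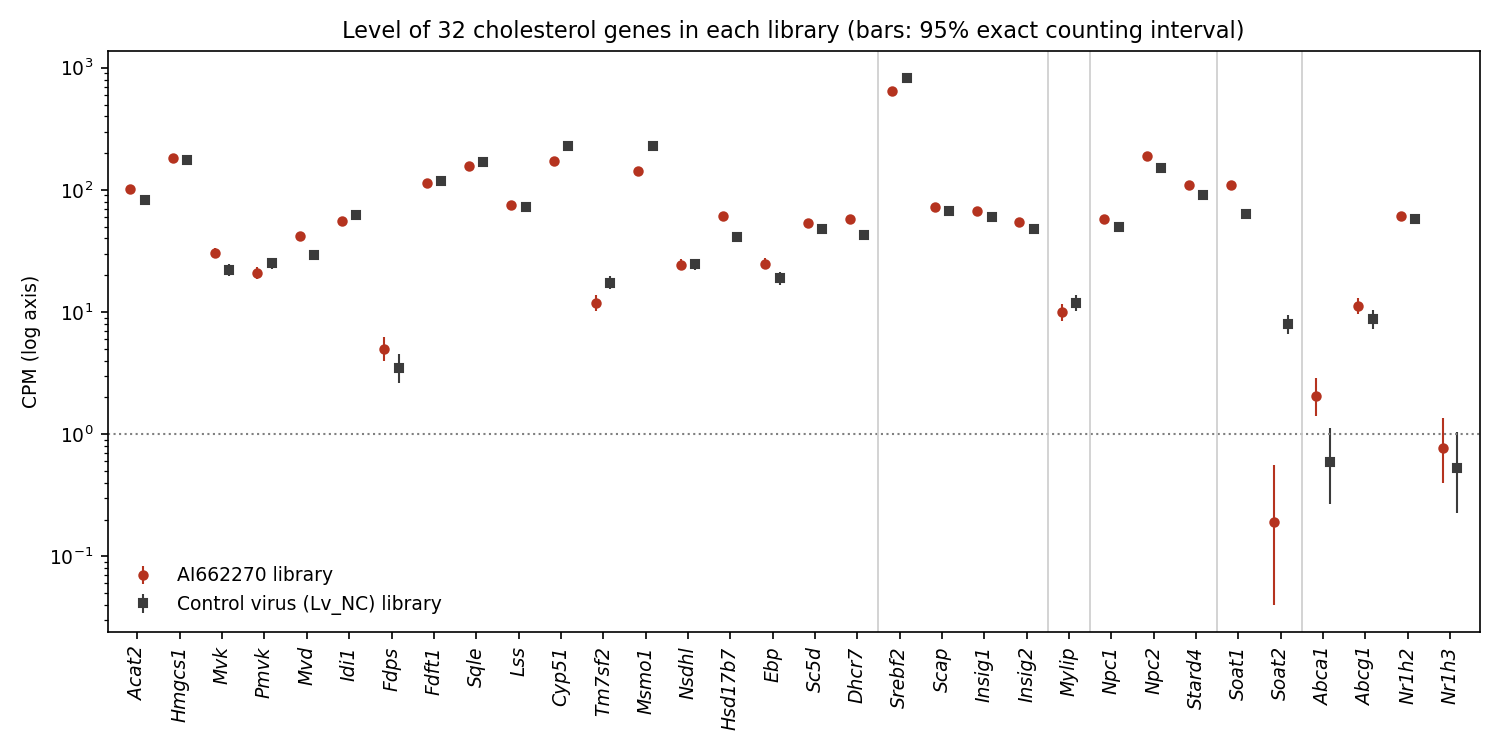
Level of each of the 32 genes in CPM on a log axis, in the AI662270 library (red circles) and the Lv_NC library (dark squares), with 95% counting intervals and a dotted line at 1 CPM. Most pairs of points lie close together, and Soat2 stands apart at 0.193 CPM in the AI662270 library and 7.96 CPM in Lv_NC.

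Per kilobase of gene model, the most abundant member was Srebf2 with a mean of 102.5 CPM per kb. Cyp51 followed with 45.7, Hmgcs1 with 39.1 and Acat2 with 36.4 CPM per kb. The lowest were Fdps with 1.01, Nr1h3 with 0.258 and Abca1 with 0.128 CPM per kb. Of the Fdps exon bases, 26.7% overlap another gene on the same strand, so its level and rank are uncertain. The lengths are those deposited with the counts and include long transcript models, which lowers the value of genes such as Soat1.

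Soat1 and Soat2 encode the endoplasmic reticulum enzymes that join cholesterol to a fatty acid. In mammals Soat1 is the broadly expressed enzyme and Soat2 is known mainly from liver and intestine. Soat2 (chr15:102150526-102163469, plus strand, mm10) had 3 counts in the AI662270 library and 121 counts in the Lv_NC library. Soat2 was 41.3-fold lower in the AI662270 library, with a counting interval of 13.8 to 203-fold lower. In the authors' deposited comparison, which is of 1 library against 1, the log2 fold change of Soat2 is -5.31. Soat1 (chr1:156424525-156474331, minus strand) had 1709 counts, or 109.7 CPM, in the AI662270 library and 965 counts, or 63.5 CPM, in Lv_NC. Its ratio was 1.73 (interval 1.596 to 1.87), a difference beyond counting error that did not reach 2-fold.

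Soat2 made up 3 of 1712 Soat1 and Soat2 counts in the AI662270 library, or 0.175% (exact interval 0.0362 to 0.511%). In the Lv_NC library it made up 121 of 1086 counts, or 11.1% (9.33 to 13.2%). Per kilobase of the deposited gene lengths, the Soat2 share was 0.771% in the AI662270 library and 35.7% in Lv_NC. The Soat1 length of 9791 bases merges the exons of 8 transcripts, and that of Soat2 is 2213 bases. Values per kilobase for this pair therefore depend on the gene models. The sum of both genes was 109.9 CPM in the AI662270 library and 71.4 CPM in Lv_NC. Per kilobase, the sum was 11.3 CPM per kb in the AI662270 library and 10.1 CPM per kb in Lv_NC. In bulk RNA, fewer cells that express a gene and less RNA per cell cannot be told apart.

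Markers of tissues known for Soat2 were read beside it. The 6 intestinal markers, 3 of them measured, summed to 122 CPM in the AI662270 library and 104 CPM in Lv_NC, with Krt20 at 1798 counts in the AI662270 library and 1523 in Lv_NC and Fabp2 at 0 in both. Of the 3, Vil1 was called higher, with 51 counts in the AI662270 library and 4 in Lv_NC, a ratio of 12.4 (4.57 to 47.4). Cdx2 had 29 counts in the AI662270 library and 34 in Lv_NC, with an interval that held 1. The 8 hepatocyte markers, 2 of them measured, summed to 7.44 CPM in the AI662270 library and 0.526 CPM in Lv_NC, with Alb at 73 counts in the AI662270 library and 0 in Lv_NC, and 7 of the 8 at 0 in Lv_NC. The part of these markers in the Soat2 difference was not tested. The measured genes next to Soat2 did not pass the 2-fold rule. Igfbp6 had 59 counts in the AI662270 library and 68 in Lv_NC, Spryd3 had 603 and 819, Csad had 462 and 367, and Zfp740 had 2462 and 3930.

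**Figure D2:**
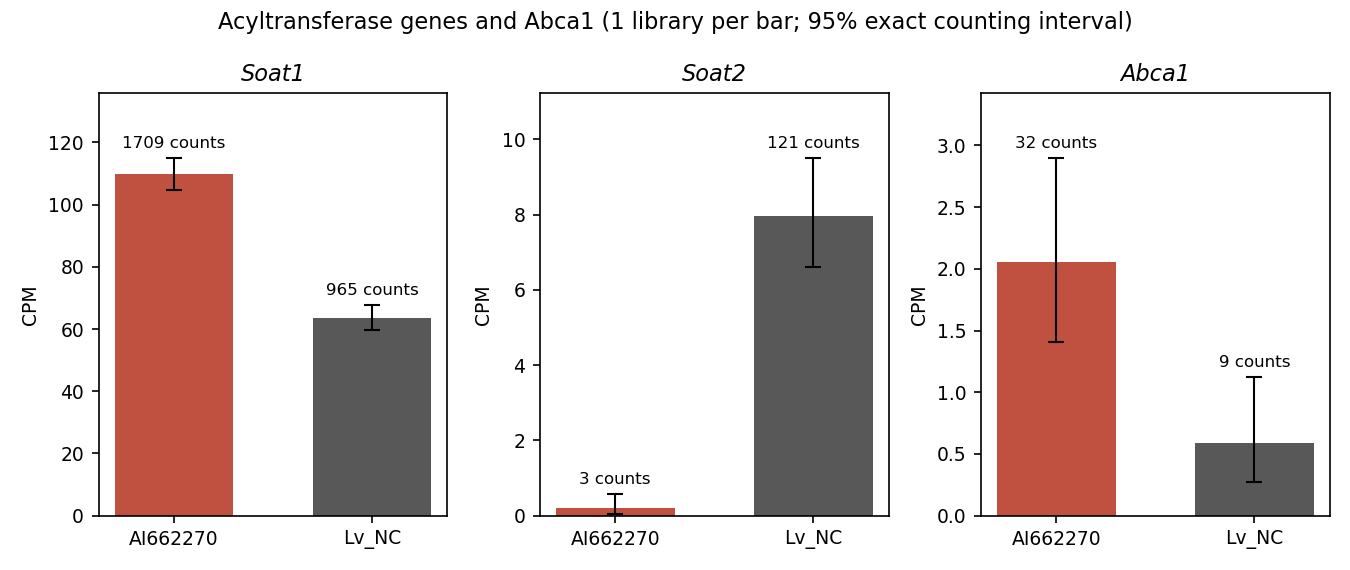
Levels of Soat1, Soat2 and Abca1 in CPM in the AI662270 library (red) and the Lv_NC library (grey), each bar 1 library with its 95% exact counting interval and its count, on a separate linear axis from 0 for each gene. Soat1 and Abca1 are higher and Soat2 is lower in the AI662270 library, and the Abca1 bars rest on 32 counts for AI662270 and 9 for Lv_NC.

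Synthesis was described along the pathway. Of its 18 genes, all measured, none was called higher or lower, and the median log2 ratio was 0.05. Ratios above and below zero were mixed, with 10 above and 8 below. Counting intervals lay wholly above 1 for 8 of the genes and wholly below 1 for 6, and held 1 for 4. Over all measured genes 31.9% of intervals lay above 1 and 35.8% lay below it.

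The promoters of 4 members are shown from RefSeq (build GRCm38.p6). They are Hmgcs1, the single member with a match to the sterol regulatory element searched; Msmo1 and Hsd17b7, the synthesis genes furthest down and up; and Soat1. Each window runs from 250 bases before to 50 bases after the start site. Capitals mark matches to 3 patterns, each searched on both strands. The patterns are TCACNCCAC, a strict form of the sterol regulatory element, CCAAT, the NF-Y motif, and GGGCGG, the Sp1 motif. The windows are chr13:119690101-119690400 on the plus strand for Hmgcs1, chr8:64733529-64733828 on the minus strand for Msmo1, chr1:169969156-169969455 on the minus strand for Hsd17b7 and chr1:156474279-156474578 on the minus strand for Soat1.
Hmgcs1: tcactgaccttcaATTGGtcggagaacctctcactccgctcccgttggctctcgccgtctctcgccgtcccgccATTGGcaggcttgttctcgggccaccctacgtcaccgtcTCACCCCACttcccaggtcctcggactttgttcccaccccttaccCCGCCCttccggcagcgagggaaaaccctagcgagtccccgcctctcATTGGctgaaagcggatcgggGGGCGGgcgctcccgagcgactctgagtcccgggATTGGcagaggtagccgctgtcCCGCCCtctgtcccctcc
Msmo1: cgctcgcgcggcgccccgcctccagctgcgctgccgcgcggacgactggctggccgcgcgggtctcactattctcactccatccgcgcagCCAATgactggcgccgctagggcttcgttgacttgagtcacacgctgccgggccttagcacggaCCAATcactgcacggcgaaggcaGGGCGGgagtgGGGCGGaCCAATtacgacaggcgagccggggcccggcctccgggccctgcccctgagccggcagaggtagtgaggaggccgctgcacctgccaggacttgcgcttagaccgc
Hsd17b7: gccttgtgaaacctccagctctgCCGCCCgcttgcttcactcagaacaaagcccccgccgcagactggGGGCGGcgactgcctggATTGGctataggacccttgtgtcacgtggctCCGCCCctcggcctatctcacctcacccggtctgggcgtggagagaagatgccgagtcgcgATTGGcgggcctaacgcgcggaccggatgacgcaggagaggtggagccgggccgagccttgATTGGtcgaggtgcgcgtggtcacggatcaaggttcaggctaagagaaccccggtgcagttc
Soat1: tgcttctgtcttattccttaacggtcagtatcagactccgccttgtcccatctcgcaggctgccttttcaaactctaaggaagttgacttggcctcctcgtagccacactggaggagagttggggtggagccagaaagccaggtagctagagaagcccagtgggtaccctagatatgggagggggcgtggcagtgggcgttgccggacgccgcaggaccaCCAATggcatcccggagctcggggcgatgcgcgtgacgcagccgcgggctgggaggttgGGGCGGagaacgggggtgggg

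RefSeq promoters were available for 25 of the 32 members. The exact pattern TCACNCCAC occurred in 1 of the 25, Hmgcs1, and in 1.41% of the 9641 measured genes with a promoter. Variants of the element were not searched, so a member without a match may still hold one. CCAAT occurred in 20 of the 25 (80%) and in 43.5% of these measured genes. GGGCGG occurred in 22 of the 25 (88%) and in 70.7% of these measured genes. A match is a letter pattern in a window, and was not compared with binding of any factor here. Fdps, Fdft1, Sqle, Npc1, Stard4, Soat2 and Abcg1 had no entry. The called member Abca1 had an entry, not printed above, with 2 matches to GGGCGG and none to the other patterns.

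The pathway starts with Acat2, the cytosolic acetoacetyl-CoA thiolase, which is a different gene from the acyltransferase Soat2 whose older name was ACAT2. Acat2 had 1591 counts in the AI662270 library and 1260 in Lv_NC, a ratio of 1.23 (1.14 to 1.33). Of the Acat2 transcript sequence, 39.1% of 50-base windows also occur in other genes, so its count is uncertain. Hmgcs1, which makes HMG-CoA, had 2847 counts in the AI662270 library and 2681 in Lv_NC, with a ratio of 1.04 and an interval that held 1. Of the Hmgcs1 windows, 11.6% also occur in other genes, which leaves its count less certain. Mvk, which phosphorylates mevalonate, had 476 counts in the AI662270 library and 337 in Lv_NC, a ratio of 1.38. Pmvk, the next kinase, had 327 counts in the AI662270 library and 380 in Lv_NC, a ratio of 0.840. Mvd, which decarboxylates to isopentenyl diphosphate, had 653 counts in the AI662270 library and 445 in Lv_NC, a ratio of 1.43 (1.27 to 1.62).

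Idi1, the isomerase that balances the isoprenoid units, had 860 counts in the AI662270 library and 952 in Lv_NC. Fdps, farnesyl diphosphate synthase, had 78 counts in the AI662270 library and 53 in Lv_NC. Fdft1, squalene synthase, had 1782 counts in the AI662270 library and 1813 in Lv_NC. Its sign turned with the scaling, from -0.06 to 0.04 on the log2 scale. Windows shared with other genes covered 26.5% of Fdft1, 26.2% of Fdps and 25.3% of Idi1, so these counts are uncertain too. Genes sharing windows with Fdps held 185 counts in the AI662270 library and 315 in Lv_NC, opposite in direction to Fdps. The 8 genes up to squalene summed to 553 CPM in the AI662270 library and 521 CPM in Lv_NC, a ratio of 1.06 (1.03 to 1.09).

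From squalene onward, Sqle, the epoxidase, had 2429 counts in the AI662270 library and 2585 in Lv_NC, a ratio of 0.917. Lss, lanosterol synthase, had 1163 counts in the AI662270 library and 1098 in Lv_NC. Cyp51, the lanosterol demethylase, had 2698 counts in the AI662270 library and 3498 in Lv_NC, a ratio of 0.753 (0.715 to 0.792). Tm7sf2, a sterol reductase, had 186 counts in the AI662270 library and 265 in Lv_NC, a ratio of 0.685 (0.565 to 0.829). The deposited gene model of Tm7sf2 differs in its coordinates from that in GENCODE M21. Of its exon bases in GENCODE M21, 12.1% overlap Vps51 on the same strand, so its count is uncertain. Msmo1, the methylsterol monooxygenase, had 2205 counts in the AI662270 library and 3507 in Lv_NC. At 1.63-fold lower it had the largest difference of the synthesis genes by log2 ratio.

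Nsdhl, which works with Msmo1 and Hsd17b7 to remove methyl groups, had 381 counts in the AI662270 library and 376 in Lv_NC. Its sign also turned with the scaling, from -0.02 to 0.08 on the log2 scale. Hsd17b7 had 954 counts in the AI662270 library and 630 in Lv_NC, a ratio of 1.48 (1.33 to 1.64), opposite to Msmo1. Ebp, the sterol isomerase, had 388 counts in the AI662270 library and 287 in Lv_NC. Sc5d, the desaturase, had 833 counts in the AI662270 library and 733 in Lv_NC. Dhcr7, a final reductase, had 899 counts in the AI662270 library and 655 in Lv_NC, a ratio of 1.34. The 10 genes from squalene to cholesterol summed to 779 CPM in the AI662270 library and 897 CPM in Lv_NC. The ratio of this sum was 0.869 (0.847 to 0.890). Their median log2 ratio was 0.02, with 5 positive and 5 negative, so the 10 genes did not share a direction. The sum weights abundant genes, and Msmo1 and Cyp51, both with ratios below 1, had the highest counts of the 10 in Lv_NC. All 18 synthesis genes summed to 1332 CPM in the AI662270 library and 1418 CPM in Lv_NC. The ratio of that sum was 0.939, and it was 1.01 when libraries were scaled by total counts, so the sum has no direction that holds across scalings.

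**Figure D3:**
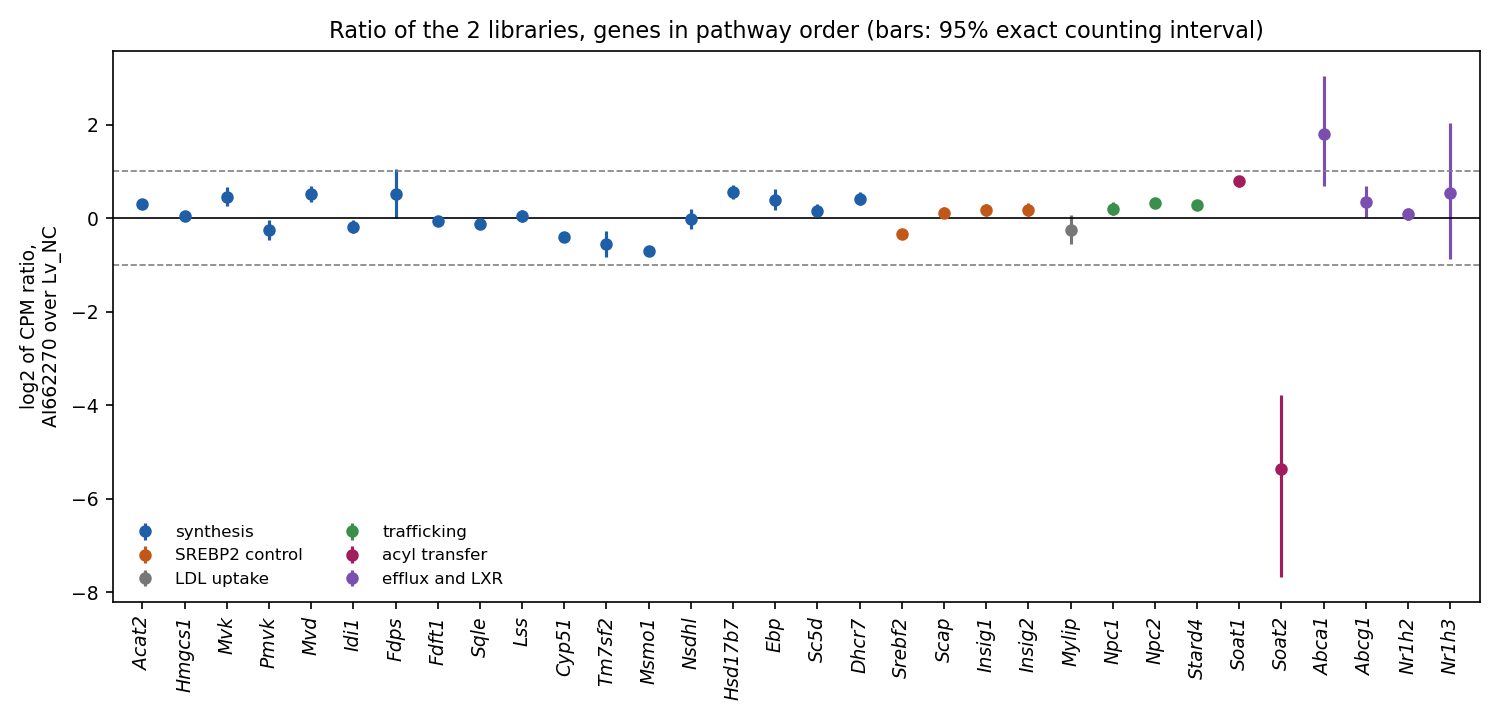
Log2 of the CPM ratio of the AI662270 library over the Lv_NC library without a pseudocount, for the 32 genes in pathway order and coloured by role, with 95% counting intervals and dashed lines at 2-fold. The synthesis genes (blue) lie on both sides of zero, and Soat2 lies furthest from it at 41.3-fold lower.

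SREBP2 control had 4 measured genes, none past the rule, with a median log2 ratio of 0.14. Srebf2, which encodes SREBP2, had 10136 counts in the AI662270 library and 12510 in Lv_NC, a ratio of 0.791 (0.770 to 0.812). Its escort Scap had 1139 counts in the AI662270 library and 1024 in Lv_NC, with an interval that held 1. The retention genes Insig1 and Insig2 were at 1.13 times each, with 1052 and 851 counts in the AI662270 library and 910 and 732 counts in Lv_NC. Insig1 is itself a known target of SREBP2. Mylip, a ubiquitin ligase induced by LXR that lowers lipoprotein uptake, had 156 counts in the AI662270 library and 180 in Lv_NC, with an interval that held 1.

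The 3 trafficking genes all had ratios above 1, none past the rule. Npc1 and Npc2 move cholesterol out of the lysosome. Npc1 had 900 counts in the AI662270 library and 761 in Lv_NC, and Npc2 had 2968 in the AI662270 library and 2311 in Lv_NC, a ratio of 1.25 (1.19 to 1.32). Stard4, a soluble carrier of cholesterol, had 1721 counts in the AI662270 library and 1373 in Lv_NC. Their sum was 359 CPM in the AI662270 library and 292 CPM in Lv_NC, and its ratio stayed between 1.23 and 1.31 across scalings.

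Of the efflux genes, Abca1, the transporter that loads lipid onto apolipoprotein A-I, had 32 counts in the AI662270 library and 9 counts in Lv_NC. Abca1 (chr4:53030787-53159895, minus strand) was 3.47-fold higher in the AI662270 library, with an interval of 1.62 to 8.26, at levels of 2.05 CPM in the AI662270 library and 0.592 CPM in Lv_NC. The call was lost with a pseudocount of 2 CPM, where the log2 ratio was 0.65. The measured gene closest to Abca1, Nipsnap3b, lay 8727 bases away. It had 484 counts in the AI662270 library and 258 in Lv_NC, a ratio of 1.83 (1.57 to 2.14). Smc2, 542527 bases away, had 3333 and 3382, with an interval that held 1. Neither passed the rule. On the other side, Fsd1l, 471576 bases away, had 191 counts in the AI662270 library and 141 in Lv_NC. Slc44a1, 280518 bases away, had 1750 and 1624. Abcg1, a transporter to mature lipoproteins, had 174 counts in the AI662270 library and 133 in Lv_NC, a ratio of 1.28 (1.01 to 1.61). The LXR receptor gene Nr1h2 had 958 counts in the AI662270 library and 875 in Lv_NC. Nr1h3, the other LXR gene, was not measured, with 12 counts in the AI662270 library and 8 in Lv_NC.

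Another 9 lists of other cholesterol-related genes gave a wider view. Of their 151 genes 130 were measured, 3 were higher, 2 were lower and the median log2 ratio was -0.03. All measured genes were called higher in 5.59% and lower in 5.72% of cases, so the called genes are no more frequent in these lists than among all genes, and the 5 are named here as values. Ldlrad3, of the lipoprotein receptor list, had 204 counts in the AI662270 library and 34 in Lv_NC, 5.85-fold higher (4.06 to 8.68). Dgat2, which makes triglyceride for lipid droplets, had 527 counts in the AI662270 library and 248 in Lv_NC, 2.07-fold higher, a call lost with a pseudocount of 2 CPM. Srd5a3, a reductase of dolichol synthesis, had 563 counts in the AI662270 library and 247 in Lv_NC, 2.22-fold higher.

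Pltp, a phospholipid transfer protein and known LXR target, had 316 counts in the AI662270 library and 711 in Lv_NC, 2.31-fold lower (2.02 to 2.64). Mid1ip1, a regulator of acetyl-CoA carboxylase, had 440 counts in the AI662270 library and 981 in Lv_NC, 2.28-fold lower. The other 4 lists had no called gene. In SREBP processing, Mbtps1, a protease that cuts SREBP, had 5004 counts in the AI662270 library and 4213 in Lv_NC, and Vcp had 5848 and 3231. The lysosomal membrane genes Lamp1 and Lamp2 had log2 ratios of 0.38 and 0.18, the oxysterol list's Cyp39a1 and Sult2b1 had 0.33 and -0.50, and Acly and Cs of acetyl-CoA supply had 0.27 and -0.27.

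**Figure D4:**
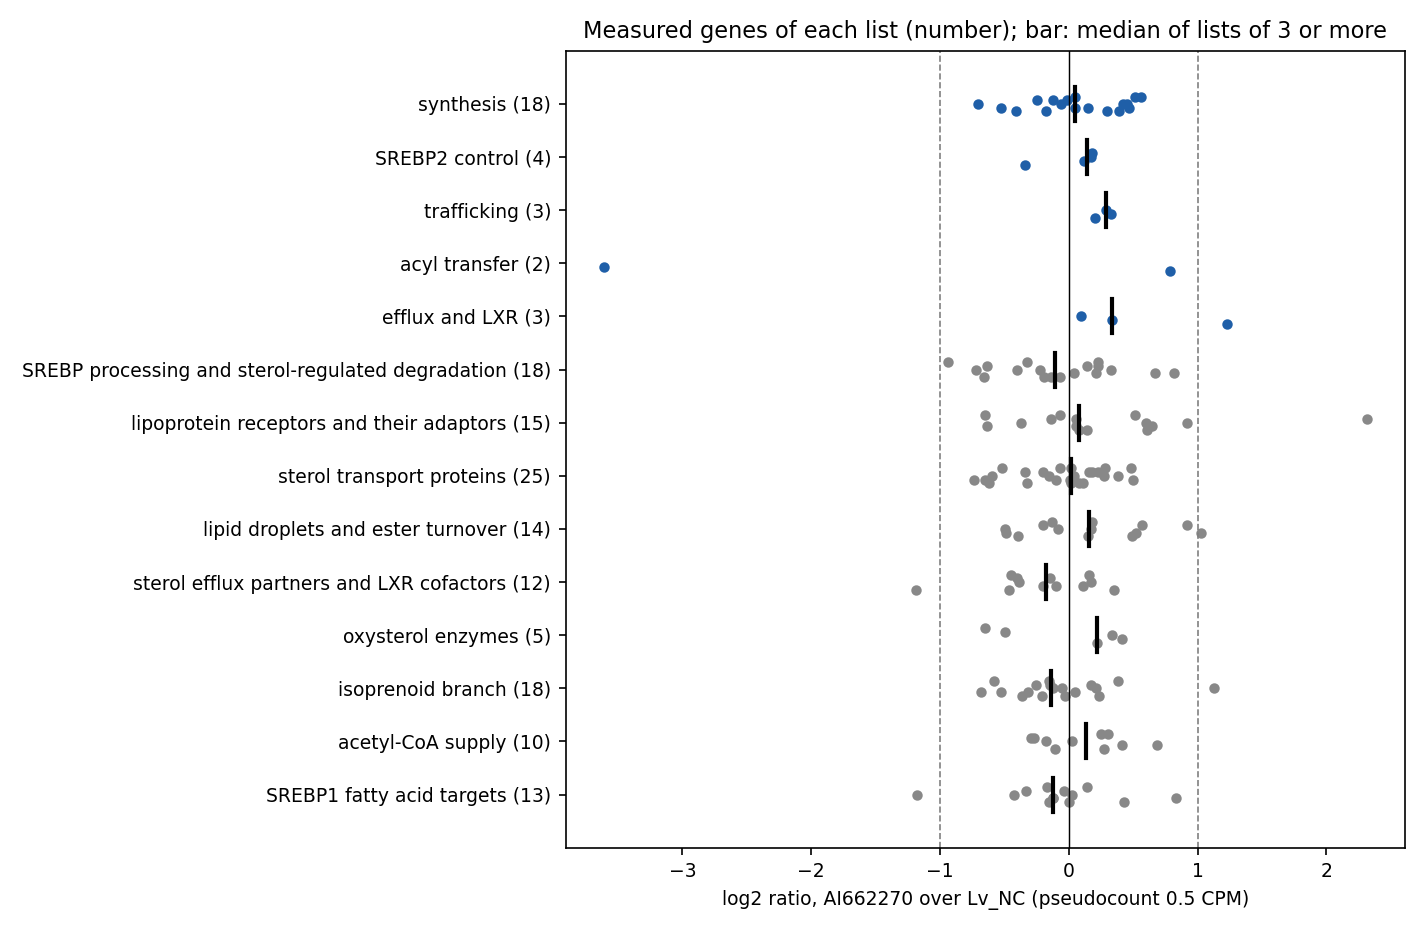
Log2 ratios of the AI662270 library over the Lv_NC library for the measured genes of each list of 2 or more, with the 5 lists of members in blue, the 9 other lists in grey, medians as bars for lists of 3 or more and dashed lines at 2-fold. Most points lie between the dashed lines, and Soat2, Abca1 and 5 genes of the other lists lie outside them.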

How the data were processed

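RNA of 1 AI662270 library and 1 Lv_NC library was analysed from the deposited table of all genes. The labels give polyA RNA, whereas the design text gives mRNA after rRNA removal. Per the submitters' processing notes, CASAVA 1.4, TopHat2 and build mm10 were used; for the counter, annotation release and strand, nothing is stated in these sources, and overlapping genes are therefore uncertain. The deposited counts are whole reads per gene, not normalized by the authors, judged from the values. The deposited FPKM values served as an alternative. The deposited log2 fold changes and p-values come from the authors' comparison, per the file headers. Table columns named Lv_Con were taken as Lv_NC. Counts were scaled with TMM in edgeR 4.0.16 (R 4.3.3), and CPM, log2 ratios (pseudocount 0.5 CPM) and exact Clopper-Pearson intervals of 2 counts were computed in Python 3.11.15 with scipy 1.17.1. The script was tested on simulated data. Fold changes on the log2 scale understate low genes. Gene models were compared with GENCODE M21.

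The members and lists were chosen with earlier results of these data known. Named were all members, AI662270, for each called member the 2 closest measured genes either side and, in each other list, up to 4 called genes or, with none called, the 2 most abundant. In all, 11 alternatives were run: other scalings (one with DESeq2 1.42.0), pseudocounts, filters, thresholds and FPKM.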

Additional observations from a re-analysis of the deposited data

How the results depend on the processing

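The median log2 ratio of the measured members stayed between 0.13 and 0.24 over the alternatives that gave it, and no called value changed sign. The number of members called higher was 1 and fell to 0 with a pseudocount of 2 CPM, a minimum mean of 5 CPM, a threshold of 3-fold or the deposited FPKM, and was 2 with a threshold of 1.5-fold. The number called lower was 1, was 0 with a minimum mean of 5 CPM, which removes Soat2, and was 2 with a threshold of 1.5-fold. The log2 ratio of Soat2 lay between -4.78 and -2.18, and that of Abca1 between 0.33 (FPKM plus 0.5) and 1.64. Scaling by total counts moved the median of all measured genes to 0.08. No paired analysis was possible because each group is 1 library, and for the same reason no library could be left out. With 15062482 and 15727023 counts, 3 counts correspond to 0.193 CPM in the AI662270 library and 0.197 CPM in Lv_NC, which limits statements on Soat2, Abca1 and Nr1h3.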

Other observations

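Some genes of the oxysterol and lipoprotein receptor lists lay under the minimum of 1 CPM, and were named after their values were seen. Cyp46a1, a cholesterol hydroxylase known from brain, had 20 counts in the AI662270 library and 2 counts in Lv_NC. Cd36, a scavenger receptor that takes up modified lipoprotein and fatty acid, had 7 counts in the AI662270 library and 0 counts in Lv_NC. Near the 2-fold limit, the lipid droplet coat gene Plin3 had 1049 counts in the AI662270 library and 538 in Lv_NC. Ube2g2, which encodes an enzyme of sterol-regulated degradation, had 860 and 1616. Lrp4, of the lipoprotein receptor list, was also near that limit, with 206 counts in the AI662270 library and 103 in Lv_NC. These genes fall outside the rule for naming genes given above.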
